A study of Mus musculus with 15 samples.

Results

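The 10 genes described here belong to the axonal cytoskeleton and were measured in the trigeminal ganglion (TG), which holds the cell bodies of the sensory neurons that supply the cornea. They were chosen by symbol as the 3 neurofilament subunits Nefl, Nefm and Nefh, the neuronal intermediate filaments Prph and Ina, the tubulin Tubb3, the microtubule-associated proteins Map1b and Mapt, and the stathmins Stmn2 and Stmn3. All 10 were found among the 55573 genes of the count table, and all 10 passed the low-count filter that left 16567 genes for testing. The 15 samples were RNA from the TG of male CD1 mice, bought at 10 weeks of age, whose right cornea had lost its central epithelium and anterior stroma inside a 2 mm trephine mark. The TG of the injured side was taken on day 12 of treatment, 3 times per day, with vehicle (replicates 1 to 5), with resolvin D6 as a standard (RvD6, replicates 6 to 10) or with a stereoisomer of RvD6 (RvD6si, replicates 11 to 15), so every group was injured and no uninjured TG was compared. The dose of the lipids in these groups is not given in the sources used here. The smallest library held 4125962 counts, the largest 9903396 and the median one 7756538. Markers of neurons were plentiful, with Snap25 at 1150 to 2270 CPM and Uchl1 at 637 to 1440 CPM (counts scaled to the same library total) in all samples, and markers of tissues next to the ganglion were present as well. The genes of central nervous system glia summed to 94.1 to 406 CPM, with the oligodendrocyte genes Mobp at 54.9 to 299 and Mog at 4.19 to 39.0 CPM in all samples and Opalin at no more than 3.53 CPM, and growth hormone (Gh), from the adjoining pituitary, ranged from 6.46 to 3350 CPM. No source states whether a sample is 1 mouse or a pool, and the p-values measure the spread between these samples.

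Neurofilaments are the intermediate filaments of axons. Light (Nefl), medium (Nefm) and heavy (Nefh) subunits assemble with α-internexin (Ina) or, in peripheral neurons, with peripherin (Prph), and their number sets the calibre of large axons. Microtubules run beside them as tracks for transport, and Tubb3 is the β-tubulin of neurons. Map1b and tau (Mapt) bind along the microtubule lattice, whereas stathmins bind free tubulin dimers. Stmn2 (SCG10) is a growth cone protein of developing and regenerating axons, and Stmn3 (SCLIP) is its close relative. Sensory neurons with thick myelinated axons are known for high Nefh, and those with thin unmyelinated axons for high Prph.

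These genes were among the abundant messages of the ganglion. Together they took 1.77 to 2.16% of the counts in the vehicle samples, 1.09 to 1.92% in the RvD6 samples and 1.89 to 2.21% in the RvD6si samples. On the scale of normalized counts per kilobase of exon, which allows levels of different genes to be set side by side, the vehicle means ran from Stmn3 at 9741 ± 312 and Tubb3 at 9697 ± 678 (SD, n = 5), which did not differ beyond their spread, through Nefl at 7506 ± 373, Prph at 4938 ± 426 and Nefh at 3479 ± 420. Below these lay Stmn2 at 2736 ± 205, Nefm at 2574 ± 713 and Map1b at 2097 ± 316, of which Nefm could not be separated from either neighbour. Mapt at 245 ± 31.3 and Ina at 50.9 ± 9.84 came last. The order was the same in the RvD6 samples. In the RvD6si samples Stmn2 lay below Nefm and Map1b, at 2114 ± 124 against 2721 ± 601 and 2478 ± 341, and Tubb3 at 8233 ± 1183, Nefl at 7989 ± 970 and Stmn3 at 7763 ± 1148 lay within each other's SD.

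The positions of Nefl and Nefm bear on their levels. In the GRCm38 build Nefl lies on the plus strand at chr14:68083863-68089095 and Nefm on the minus strand at chr14:68082590-68124846. The annotation (GENCODE M21) gives Nefm a second transcript whose last exon, of 2381 bases, runs into the first exon of Nefl on the other strand. The genes share 1108 exonic bases, 32.8% of the exonic length of Nefl and 19.2% of that of Nefm. The libraries did not keep the strand, and reads lying on the exons of both genes were not counted. Per kilobase of the bases that belong to 1 gene alone, the vehicle mean of Nefl was 11167 ± 554, above those of Stmn3 and Tubb3, and that of Nefm was 3184 ± 882. Ina likewise shares 456 bases, 14.1% of its exons, with Nt5c2 on the other strand. The remaining members share no exonic base with another annotated gene, and the same bases were lost in every sample. The lengths also hold exons of only some transcripts, such as the rest of that last exon of Nefm. How many reads came from each transcript was not measured, so the level of Nefm per kilobase is uncertain.

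**Figure D1:**
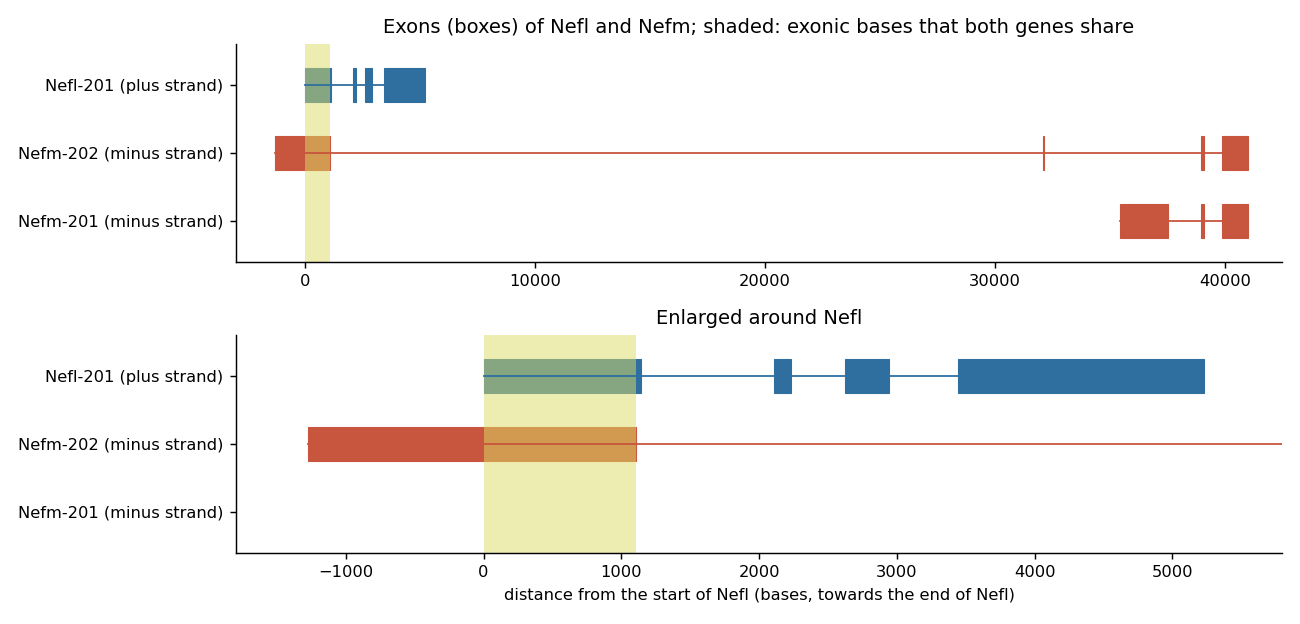
Annotated exons (boxes) and introns (lines) of Nefl and of both Nefm transcripts, drawn against the distance in bases from the start of Nefl, with the lower panel enlarged. The shaded 1108 bases are the first exon of Nefl over the last exon of the longer Nefm transcript; the shorter Nefm transcript ends far from Nefl.

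In the RvD6 samples the mean of each of the 10 genes lay below that of the vehicle samples, with log2 fold changes from -0.57 (Nefh) to -0.25 (Map1b) and a median of -0.40, where the median of all genes tested was 0.02 and 47.8% of them lay below 0. None of the 10 passed the test after adjustment over all genes (edgeR quasi-likelihood, lowest adjusted p = 0.175), and neither did any other gene in this comparison (0.0% called, 13.6% at an unadjusted p under 0.05), although DESeq2 called 369 genes on the same samples (1.14% of those it tested), no member among them. Without adjustment, Nefl, Nefh, Prph, Tubb3, Stmn2 and Stmn3 were lower at p under 0.05, 6 of 10 members, where 5.99% of all genes tested were. In bulk tissue, fewer neurons and less of a message in each neuron cannot be told apart. The 12 pan-neuronal genes had a median log2 fold change of 0.09 in this comparison, with 7 above 0 and 1 lower at an unadjusted p under 0.05, while their summed level was 2440 to 3310 CPM in RvD6 and 3290 to 3750 in vehicle samples. With the mean log2 CPM of these 12 genes as a term in the model all 10 members were below 0 (median -0.40). Of the members, 8 then had an unadjusted p under 0.05. That term weighs the 12 genes equally, so the lower sum itself was not adjusted for. The 5 satellite glia genes summed to less in every RvD6 sample than in every vehicle sample (4820 to 6180 against 6560 to 7700 CPM). At an unadjusted p under 0.05 Apoe was lower and Gja1 higher, with vehicle means of 48162 and 95.2 normalized counts, so the sum mostly follows Apoe. In RvD6si samples the sum was 4500 to 6660 CPM. Markers of several other tissues were higher in the RvD6 group. The summed level of 9 skeletal muscle genes was 101 to 3160 CPM in the RvD6 samples, highest in replicates 8 and 9, against 17.3 to 159 in vehicle, all 9 were higher at an unadjusted p under 0.05, and Acta1 and Ckm were above 0 in every sample of the 3 groups. The 5 erythroid genes summed to 5680 to 10400 CPM against 2260 to 4950, and the 4 granulocyte genes to 31.8 to 167 against 5.14 to 40.4, each list with all its genes higher at an unadjusted p under 0.05. All 6 fibroblast genes had a log2 fold change above 0 (median 0.79, 3 at an unadjusted p under 0.05). The part of glial, erythroid, granulocyte and fibroblast RNA in the lower values of the axonal genes was not tested. With the muscle level added to the model all 10 log2 fold changes were still below 0 (median -0.37), and 0 members had an unadjusted p under 0.05. Muscle level and group went together in these samples, so the fit cannot fully separate that term from treatment. With replicates 8 and 9 left out, a choice made after the values were seen, all 10 were below 0 (median -0.38) and 7 had an unadjusted p under 0.05. With 1 sample left out this number was 4 (without RvD6 replicate 10) to 8 (without RvD6 replicate 7 or 8). For these other fits, with a term added or samples left out, the share of all genes at that p is not given here. The counts of members in them thus have no background beside them.

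**Figure D2:**
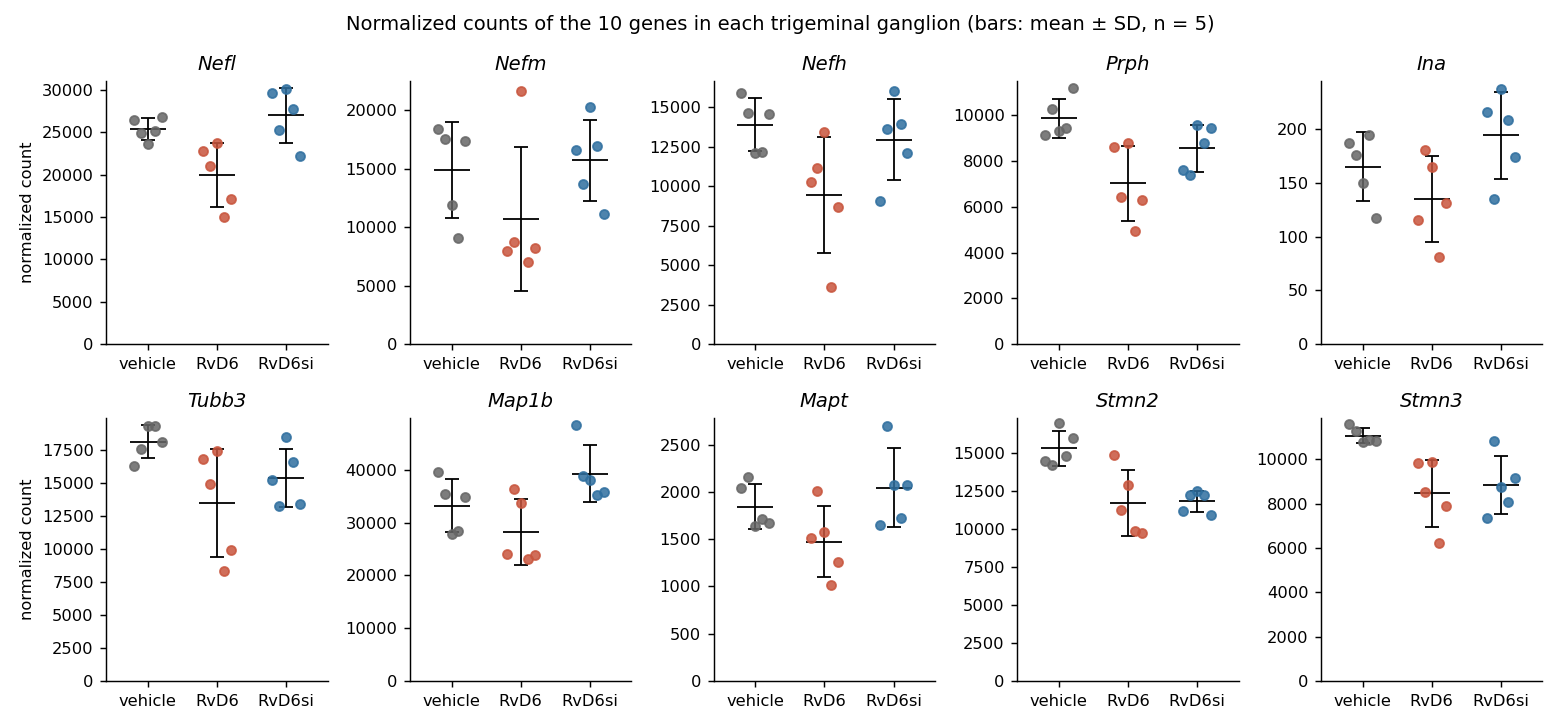
Normalized counts (vertical axes, from 0) of each gene in every vehicle, RvD6 and RvD6si sample; points are samples and bars are mean ± SD, n = 5. The RvD6 points lie below the vehicle points for Prph and Stmn3 without overlap, and the RvD6si points do so for Stmn2.

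Of the neurofilament triplet, Nefl was the most even in vehicle samples, with normalized counts of 26443, 24933, 23630, 25104 and 26748. The RvD6 samples had 22801, 21025, 23720, 14967 and 17134, so 4 of 5 lay below every vehicle sample (log2 fold change -0.36 ± 0.12 (SE), 95% interval -0.62 to -0.10, edgeR adjusted p = 0.223). The RvD6si samples had 29611, 25273, 30149, 27749 and 22238, with 3 of 5 above every vehicle sample and 1 below, a difference from vehicle of 0.09 ± 0.12 on the log2 scale (adjusted p = 0.791).

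Nefm varied most of the abundant members. Its vehicle samples had normalized counts of 18412, 17563, 11953, 9091 and 17389, a spread as wide as the differences between groups. Of the RvD6 samples 4 lay close together at 7968, 8717, 6994 and 8255, below all vehicle samples, but replicate 8 had 21665, the highest value of the 15. The log2 fold change against vehicle was -0.49 ± 0.28 (edgeR adjusted p = 0.463) and became -0.86 (adjusted p = 0.246) with replicates 8 and 9 left out. The RvD6si samples had 16604, 13689, 20286, 16969 and 11130, with a log2 difference of 0.08 ± 0.28 from vehicle (adjusted p = 0.927).

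Nefh, the subunit of large myelinated axons, had normalized counts of 15916, 14650, 12101, 12201 and 14608 in vehicle and of 10290, 11152, 13434, 3633 and 8688 in RvD6 samples. RvD6 replicate 9, at 3633, stood far below the rest of its group, and the log2 fold change of -0.57 ± 0.24 (edgeR adjusted p = 0.307) became -0.37 (adjusted p = 0.470) without it. The RvD6si samples had 9078, 13611, 16044, 13948 and 12118 and overlapped the vehicle range (log2 fold change -0.10 ± 0.24, adjusted p = 0.877).

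Prph, the filament of small unmyelinated sensory neurons, had the lowest unadjusted p of the members between RvD6 and vehicle. Its normalized counts were 9146, 10274, 9325, 9426 and 11182 in vehicle and 8627, 6438, 8805, 4957 and 6288 in RvD6 samples, so the highest RvD6 sample lay below the lowest vehicle sample (log2 fold change -0.50 ± 0.15, 95% interval -0.81 to -0.20, edgeR adjusted p = 0.175; DESeq2 adjusted p = 0.0596). Stmn3 was the other member without overlap, and 2 of 10 compares with 1.47% of all genes tested that lay wholly below vehicle in the RvD6 samples. RvD6si samples had 7589, 7374, 9552, 8770 and 9452, with a mean between those of the other groups and 3 of 5 below every vehicle sample (log2 fold change -0.21 ± 0.15, adjusted p = 0.511).

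Ina was the rarest member, with 117 to 195 normalized counts under vehicle, 81 to 181 under RvD6 and 135 to 237 under RvD6si. The groups overlapped in every pair, and the difference from vehicle on the log2 scale was -0.31 ± 0.24 for RvD6 (edgeR adjusted p = 0.604) and 0.23 ± 0.23 for RvD6si (adjusted p = 0.683).

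Tubb3 had normalized counts of 16300, 17594, 19285, 19333 and 18058 in vehicle samples. In the RvD6 samples replicates 9 and 10, at 8327 and 9907, lay apart from the other values of 16775, 14940 and 17400 (log2 fold change -0.44 ± 0.17, edgeR adjusted p = 0.284). The RvD6si samples lay between 13230 and 18477, with 3 of 5 below every vehicle sample (-0.24 ± 0.17, adjusted p = 0.531).

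Map1b, a protein of growing axons, gave more reads than any other member. The vehicle samples had 39608, 35504, 27901, 28358 and 34759 normalized counts, the RvD6 samples 24071, 36453, 33635, 23048 and 23849 and the RvD6si samples 48535, 38776, 38067, 35152 and 35772. Under RvD6, 3 values lay below all vehicle samples and the other 2 within their range, and RvD6si replicate 11 lay above every other sample. On the log2 scale RvD6 differed from vehicle by -0.25 ± 0.14 (edgeR adjusted p = 0.461) and RvD6si by 0.23 ± 0.14 (adjusted p = 0.445). For Mapt the normalized counts spanned 1639 to 2153 under vehicle, 1015 to 2009 under RvD6 and 1647 to 2700 under RvD6si, with log2 fold changes of -0.34 ± 0.17 (adjusted p = 0.406) and 0.14 ± 0.17 (adjusted p = 0.735).

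For the stathmins, which bind free tubulin, both lipid groups lay below vehicle in their means, as they did for Prph, Tubb3 and Nefh. Stmn2 had normalized counts of 14531, 14267, 16983, 14811 and 16049 in vehicle samples. The RvD6si samples had 11231, 12249, 12531, 12238 and 10972, a narrow group wholly below vehicle (log2 fold change -0.38 ± 0.12, 95% interval -0.62 to -0.13, a fold of 0.770, edgeR adjusted p = 0.119). DESeq2 did call this difference, with an adjusted p of 0.0345 with all 15 samples and 0.00365 with the 2 groups alone. It called 1.15% of 32491 and 1.21% of 30449 genes as lower. These were tested without the low-count filter, so the shares are not on the scale of those from edgeR. The RvD6 samples had 14911, 11239, 12893, 9894 and 9743, with replicate 6 inside the vehicle range (-0.40 ± 0.12, edgeR adjusted p = 0.177). Stmn2 was the only member whose RvD6si and vehicle samples did not overlap, 1 of 10, where 2.4% of all genes tested lay wholly below vehicle.

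Stmn3 had normalized counts of 11599, 11256, 10763, 10885 and 10823 in vehicle samples, the tightest set of the 10 genes. All RvD6 samples lay below these, at 9811, 8501, 9874, 6204 and 7907 (log2 fold change -0.40 ± 0.13, edgeR adjusted p = 0.197). Of the RvD6si samples, 4 lay below every vehicle sample, at 7332, 8730, 8088 and 9142, and replicate 12 lay among them at 10805 (-0.33 ± 0.13, edgeR adjusted p = 0.209).

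**Figure D3:**
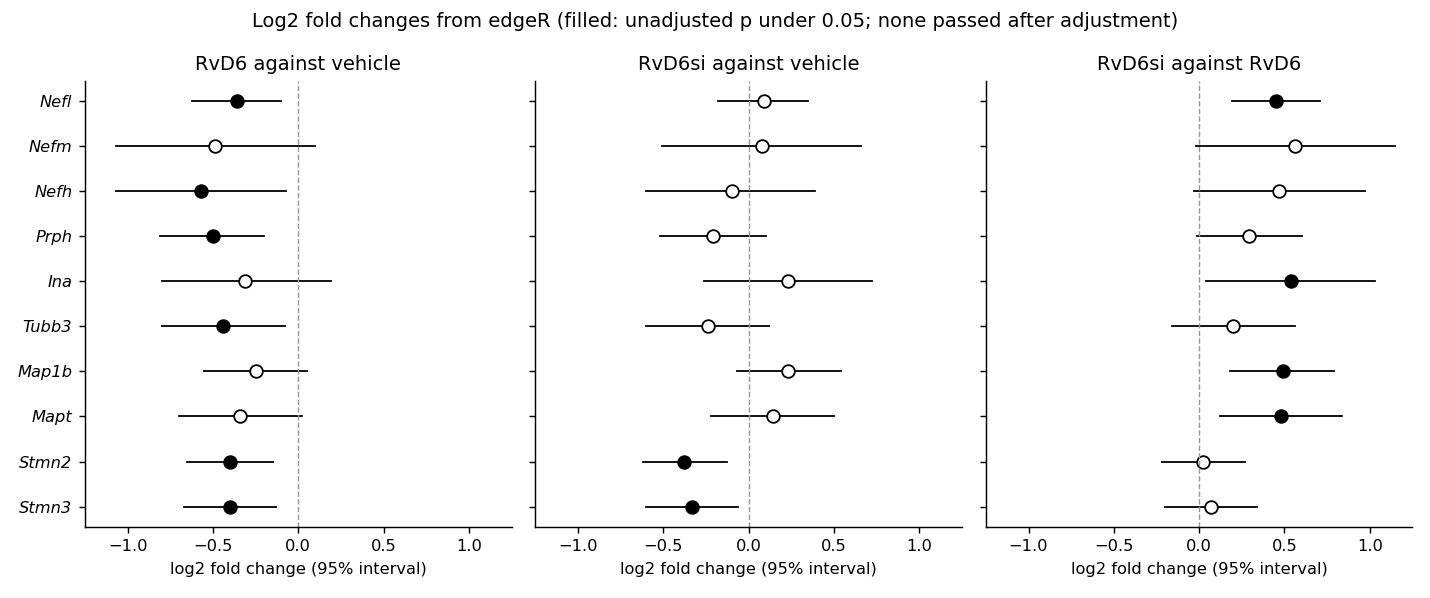
Log2 fold changes (points) with 95% intervals (lines) of the 10 genes in the 3 comparisons, from edgeR with all 15 samples; filled points have an unadjusted p under 0.05. All points lie left of 0 for RvD6 against vehicle and right of 0 for RvD6si against RvD6, and Stmn2 and Stmn3 have filled points on the left in both comparisons with vehicle.

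Against vehicle, RvD6si samples thus had 5 members above 0 and 5 below on the log2 scale, with a median of -0.01, where the median of all genes was 0.02. No member was called with edgeR, where 0.67% of all genes tested were, and 2 members (Stmn2 and Stmn3) were lower at an unadjusted p under 0.05, against 7.3% of all genes. For the other 8 the intervals covered 0, with limits as far out as -0.60 (Nefh and Tubb3) and 0.72 (Ina), so differences of that size were not excluded. The summed muscle genes lay at 11.6 to 34.9 CPM in the RvD6si samples, and the erythroid genes at 967 to 2700 CPM in 4 of them and at 12800 CPM in replicate 15. Most pan-neuronal genes pointed upward in the same samples, with a median log2 fold change of 0.37 over 12 genes, 9 above 0 and 3 below. The RNA-binding protein Elavl4 and the enolase of neurons, Eno2, were called higher (log2 fold changes 1.13 ± 0.23 and 1.06 ± 0.20, edgeR adjusted p = 0.0346 and 0.0262), the opposite direction to that of the stathmins. The 12 genes summed to 3610 to 4720 CPM in RvD6si and 3290 to 3750 in vehicle samples. A term for their level thus cannot be fully separated from treatment. With the pan-neuronal level as a term in the model, 2 members again had an unadjusted p under 0.05, both lower. Without that term, 2 also did when RvD6si replicate 15 was left out. With the trend on gene length removed the 1 such member was Stmn2 (-0.51), and without RvD6si replicate 11 there was also 1. Without that trend Stmn3 was at -0.13, Tubb3 at -0.08 and Prph at -0.07, nearer to 0 than in the main fit, and Nefh at -0.18, farther from it. The share of all genes at an unadjusted p under 0.05 in these other fits is not given here.

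The stereoisomers were compared with each other directly, in the same fit. RvD6si samples had the higher mean for all 10 genes, with log2 differences from 0.02 (Stmn2) to 0.56 (Nefm) and a median of 0.46 (median of all genes 0.00, 49.5% of them above 0). No member was called with edgeR (lowest adjusted p = 0.224), where 0.235% of all genes were. DESeq2 called none either, and 0.569% of the genes it tested without the low-count filter. At an unadjusted p under 0.05, 4 members were higher, against 4.18% of all genes in this direction. These were Nefl (0.45 ± 0.12, 95% interval 0.19 to 0.71), Map1b (0.49 ± 0.14, interval 0.18 to 0.79), Mapt (0.48 ± 0.17, interval 0.12 to 0.84) and Ina (0.54 ± 0.24, interval 0.04 to 1.03). For the stathmins the intervals were -0.22 to 0.27 (Stmn2) and -0.20 to 0.34 (Stmn3). No member separated the RvD6 and RvD6si samples completely, where 0.652% of all genes lay wholly higher in RvD6si samples. This comparison shares its samples with both comparisons against vehicle, so its values are not a separate test of theirs. The muscle genes were lower in all RvD6si samples than in all RvD6 samples in their sum (11.6 to 34.9 against 101 to 3160 CPM). Muscle level thus went with the group here too, and a term for it cannot be fully separated from treatment. With the muscle level in the model 1 member had an unadjusted p under 0.05, and with RvD6 replicates 8 and 9 left out 4 did, with a median of 0.38. This number was 2 with the pan-neuronal term, 7 without a filter on low counts and 7 without RvD6 replicate 8. The summed pan-neuronal genes did not overlap either, at 3610 to 4720 CPM in RvD6si against 2440 to 3310 in RvD6 samples. A term for them thus cannot be fully separated from treatment. The share of all genes at an unadjusted p under 0.05 in these other fits is not given here. Without RvD6 replicate 9, 8 of the 10 log2 differences were above 0, and those of Stmn2 and Stmn3 were -0.03 and -0.02.

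Replicate 9 of the RvD6 group was the lowest of the 15 samples for 9 of the 10 genes, all but Stmn2, which was lowest in replicate 10. It was also the sample richest in muscle RNA (3160 CPM), while replicate 8, with 1950 CPM, lay above the mean of the 15 samples for all members but Mapt. The sample lowest in the axonal genes after replicate 9 was replicate 10, below the mean for all 10 genes, with 292 CPM of muscle RNA and the lowest pan-neuronal sum (2440 CPM against 2960 to 4720 in the others). The mean of the neurofilament triplet, as log2 CPM from the mean of the 15 samples, was -1.08 in replicate 9, -0.51 in replicate 10 and 0.33 in replicate 8, and it ran from -0.10 to 0.39 in vehicle and from -0.07 to 0.51 in RvD6si samples. Left out of the fit, replicate 9 took the median log2 fold change of the 10 genes against vehicle from -0.40 to -0.32. All 10 were below 0 and 5 had an unadjusted p under 0.05. The share of all genes at that p in this fit is not given here.

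**Figure D4:**
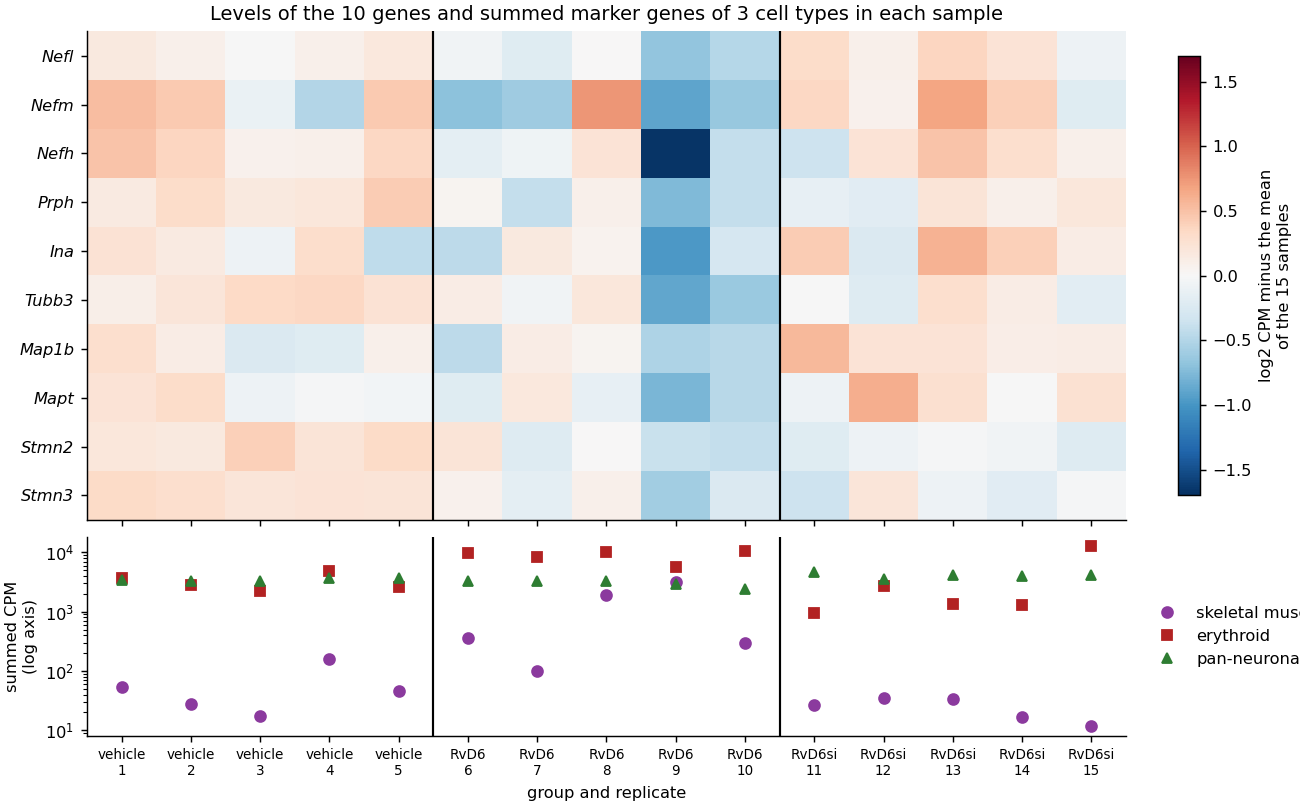
Upper panel, log2 CPM of the 10 genes in each sample as the difference from the mean of the 15 samples (red above, blue below). Lower panel, summed CPM of skeletal muscle, erythroid and pan-neuronal genes in the same samples on a log axis. The bluest column is RvD6 replicate 9, which also has the highest muscle point, and RvD6 replicate 10 is blue with a muscle point of 292 CPM.

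Ratios of counts per kilobase between members were taken within a sample, where they do not depend on the scaling of the library. The lengths include the exonic bases that Nefl and Nefm share and that give no counts, so ratios with either gene compare samples and are not proportions of subunits. The Nefh to Nefl ratio was 0.411 to 0.509 in vehicle samples and 0.382 to 0.479 in 4 RvD6 samples, with replicate 9 at 0.205. In RvD6si samples it was 0.425 to 0.461 except in replicate 11, at 0.259. The Nefm to Nefl ratio ranged from 0.212 to 0.412 in vehicle, from 0.204 to 0.534 in RvD6 and from 0.293 to 0.393 in RvD6si samples. The Stmn3 to Stmn2 ratio was alike in the 3 groups, with means of 1.83 ± 0.14, 1.83 ± 0.16 and 1.87 ± 0.20 on the log2 scale (SD, n = 5).

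The ratio of Nefl to Stmn2, picked after the values were seen, had no overlap between RvD6si and the other groups. It was 3.36 to 4.37 in RvD6si samples, 2.31 to 3.02 in vehicle and 2.51 to 3.10 in RvD6 samples. Over the 36 pairs of the 9 members with a mean CPM of at least 100, 5 pairs did not overlap between RvD6si and vehicle, where 12.8% of all pairs of such genes did not, so ratios of this kind were common. The 5 pairs were Nefl to Tubb3, Nefl to Stmn2, Map1b to Stmn2, Map1b to Stmn3 and Mapt to Stmn3, all higher in RvD6si samples. Ratios were not corrected for the trend on gene length. Between RvD6 and vehicle 0 of 36 pairs were without overlap (5.79% of all pairs). Between RvD6si and RvD6 the pair was Nefl to Stmn2 alone (2.86% of all pairs).

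**Figure D5:**
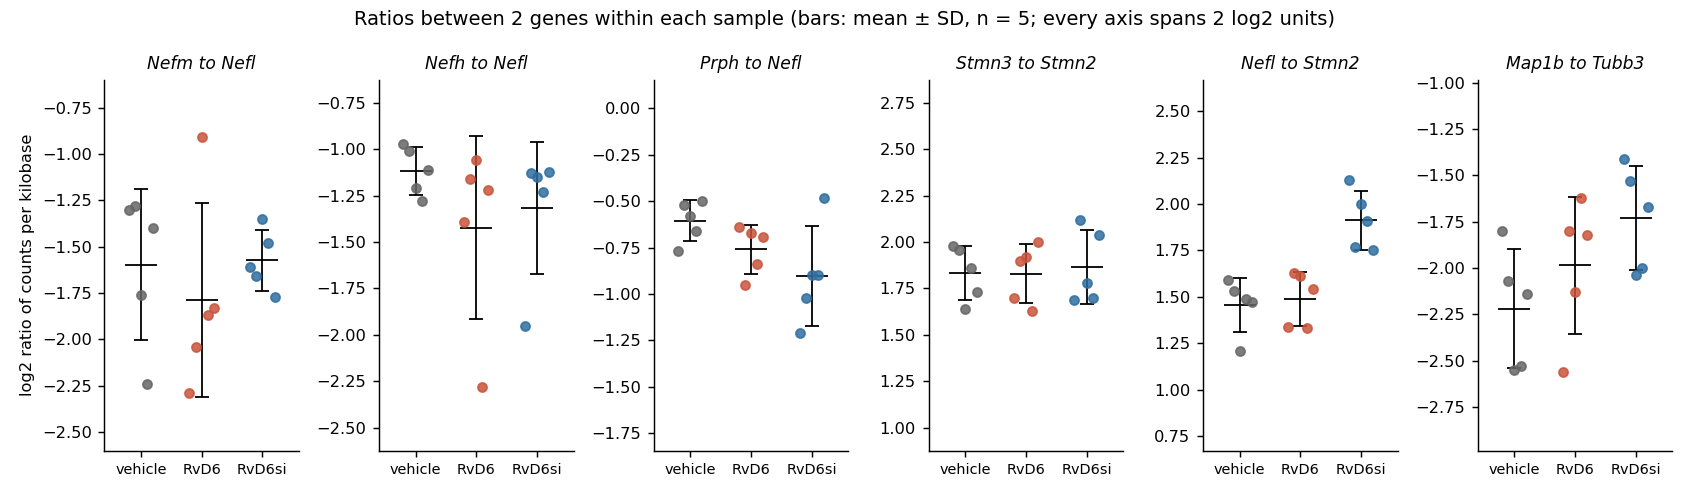
Log2 ratio of 2 genes per kilobase within each sample for 6 pairs; points are samples, bars are mean ± SD (n = 5), and every vertical axis spans 2 log2 units. Nefl to Stmn2 has all RvD6si points above the other groups, while Nefh to Nefl has 1 low point in the RvD6 group (replicate 9) and 1 in the RvD6si group (replicate 11).

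Genes near these in function were counted from lists chosen by family. Of the 12 other tubulins, 7 were lower in RvD6 than in vehicle samples at an unadjusted p under 0.05, against 5.99% of all genes. The median log2 fold change of the 12 was -0.34, and none was called. Tubb4b had 8661 ± 764 normalized counts in vehicle and 6176 ± 1294 in RvD6 samples (-0.50 ± 0.14, edgeR adjusted p = 0.156). In RvD6si samples 11 of the 12 tubulins lay below vehicle (median -0.19), with Tubb4b at 7275 ± 708 (adjusted p = 0.379) and Tuba8 at 32.2 ± 15.4 against 61.3 ± 14.1 (adjusted p = 0.267). Among the collapsin response mediators, which bind tubulin in growth cones, the vehicle mean of Dpysl2 was 4399 ± 566 normalized counts, that of RvD6 3607 ± 461 and that of RvD6si 4733 ± 841. All 5 of this family had the higher mean in RvD6si than in RvD6 samples, 3 at an unadjusted p under 0.05 (4.18% of all genes) and 0 called. Stmn1, the stathmin of many cell types, had 2229 ± 240 normalized counts in vehicle against 1749 ± 314 in RvD6si (adjusted p = 0.194) and 1847 ± 142 in RvD6 samples (adjusted p = 0.357). Stmn4 was scarce, at 15.0 ± 8.38 in vehicle and 22.4 ± 11.0 in RvD6si samples (adjusted p = 0.663).

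No member of the other microtubule lists was called in any comparison with edgeR. Over 19 microtubule-associated proteins the median log2 fold change was 0.10 for RvD6si and 0.01 for RvD6 against vehicle, with the end-binding protein Mapre3 at 127 ± 44.0 normalized counts in RvD6si and 57.7 ± 10.7 in vehicle samples (adjusted p = 0.116) and Map7d1 at 540 ± 135 and 382 ± 84.7 (adjusted p = 0.224). Of 14 genes that cut microtubules or modify tubulin 13 were tested, with medians of 0.05 and -0.14. The ligase Ttl, which restores tyrosine to tubulin, had 1344 ± 223 in vehicle and 1154 ± 188 in RvD6si samples (adjusted p = 0.537), and Ttll7, a glutamylase, had 3192 ± 655 and 4074 ± 1218 (adjusted p = 0.383). The 13 genes of the spectrin and ankyrin skeleton had medians of 0.17 and 0.12, with Ank2 at 3532 ± 823 normalized counts in RvD6si and 2563 ± 746 in vehicle samples (adjusted p = 0.266) and Epb41l3 at 3365 ± 535 and 2690 ± 322 (adjusted p = 0.257). Of 5 growth cone genes, Marcks had 564 ± 359 against 260 ± 102 (adjusted p = 0.117) and Basp1 had 206 ± 73.6 against 176 ± 35.2 (adjusted p = 0.746).

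Of 7 other intermediate filament genes, the muscle filament Des was called lower in RvD6si than in RvD6 samples (17.5 ± 7.14 against 257 ± 260, log2 fold change -3.87 ± 0.68, adjusted p = 0.0247), as were 7 of the 9 skeletal muscle genes. Of all genes tested, 0.235% were called in this comparison. The markers of sensory neuron classes gave no call. Of 5 peptidergic genes, all had a lower mean in RvD6 than in vehicle samples (median log2 fold change -0.41), 4 at an unadjusted p under 0.05 against 5.99% of all genes. Of 4 non-peptidergic genes 3 had a lower mean (median -0.20), and of 5 tested genes of myelinated A-fibre neurons 3 did (median -0.06).

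The genes whose pattern over the 15 samples lay closest to the mean of the neurofilament triplet were Ahnak2, Ap3b2, Chga, Dpysl3 and Trpv2. Their root mean square difference from it was 0.18 or 0.19 log2 units, against 0.40 for a gene with no change over the samples and a median of 0.54 over the 10066 genes compared. Among the members outside the triplet the order was Prph (0.24), Tubb3 (0.25), Map1b (0.27), Mapt (0.29), Ina (0.31), Stmn3 (0.32) and Stmn2 (0.34). Many other genes lay closer than most of these, with Prph at rank 29 and Stmn2 at rank 596 of the 10066. The 15 samples share their groups and their content of other tissues, so the closeness is a description.

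Prph and Stmn3 were the members whose RvD6 samples lay wholly below vehicle, and Map1b had one of the lowest unadjusted p-values between the stereoisomers. Their upstream sequences are set side by side for that reason. RefSeq (GRCm38.p6) gave a promoter for 5 of the 10 members (Stmn3, Tubb3, Map1b, Prph and Ina). The 250 bases before the annotated start are printed from 5′ to 3′ on the strand of the gene, with matches to TATAAA (a core promoter motif), GGGCGG (the GC box), CANNTG (the E-box), CCAAT (a motif bound by NF-Y) or TGACGTCA (the cyclic AMP response element) in capitals, each searched on both strands. Prph lies at chr15:99054924-99055173 on the plus strand, Stmn3 at chr2:181314501-181314750 and Map1b at chr13:99516603-99516852 on the minus strand, and the RefSeq start of Map1b lies upstream of the one in the GENCODE annotation.
Prph: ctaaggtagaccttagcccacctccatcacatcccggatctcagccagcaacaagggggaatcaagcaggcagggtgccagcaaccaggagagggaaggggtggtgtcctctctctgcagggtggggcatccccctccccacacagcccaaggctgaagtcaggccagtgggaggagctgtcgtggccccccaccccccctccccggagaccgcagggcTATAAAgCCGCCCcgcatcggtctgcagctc
Stmn3: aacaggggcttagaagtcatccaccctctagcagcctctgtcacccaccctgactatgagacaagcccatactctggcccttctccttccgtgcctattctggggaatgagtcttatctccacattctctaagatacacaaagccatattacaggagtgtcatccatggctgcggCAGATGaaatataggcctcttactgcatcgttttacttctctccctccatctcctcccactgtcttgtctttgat
Map1b: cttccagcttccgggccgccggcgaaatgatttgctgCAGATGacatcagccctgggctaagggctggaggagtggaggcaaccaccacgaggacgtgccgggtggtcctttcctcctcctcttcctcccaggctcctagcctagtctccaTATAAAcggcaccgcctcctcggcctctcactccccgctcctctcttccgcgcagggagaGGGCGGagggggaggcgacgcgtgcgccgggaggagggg
The Prph promoter had a TATA box starting 31 bases before the start, and a GC box on the other strand at 24 bases. Map1b had a TATA box farther out, at 99 bases, a GC box at 39 bases and an E-box at 213 bases. Stmn3 had neither a TATA box nor a GC box, and its 1 match was an E-box at 75 bases. Of 32851 promoters of this length 12.4% held the TATA box letters, 32.7% the GC box, 66.2% the E-box, 33.8% the CCAAT box and 1.55% the cyclic AMP response element. The GC content was 65.2% for Prph, 66.4% for Map1b and 48.8% for Stmn3. No motif thus matched in all 3 sequences, though Map1b shared the TATA box and the GC box with Prph and the E-box with Stmn3. A match says only that the letters are there.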

How the data were processed

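Per the labels and the study's methods, TG RNA (1 ng per sample) was reverse transcribed from the poly(A) tail, amplified and sequenced for 75 cycles. The protocol was an adapted Smart-seq2, and libraries of this kind do not keep the strand. The authors used Rsubread to align reads to GRCm38 with GENCODE release M22, and deposited raw counts on exons per gene made with featureCounts (version 1.5.0-p1 per the file header, Subread 1.6.5 per the submitters' processing notes), beside each gene's exonic length. Reads on exons of more than 1 gene were left out under the default settings. Symbols came from GENCODE M21 on the same build and matched 99.7% of the gene identifiers; promoters came from RefSeq.

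The 15 samples were grouped by treatment. The members and lists were chosen with earlier results of these data known. The test was edgeR 4.0.16 (R 4.3.3) quasi-likelihood with all 15 samples, TMM normalization, its filter on low counts (minimum count 10, minimum total 15), Benjamini-Hochberg adjustment over 16567 genes and a threshold of 0.05. Standard errors were the log2 fold change divided by the root of F, and 95% intervals used the total degrees of freedom of the fit. Normalized counts are counts divided by size factors of DESeq2 1.42.0. Marker sums are in CPM of the total counts. The neuronal and muscle terms in the model were the mean log2 CPM of each list, not these sums. The steps were tested on simulated data. Within a group, chi-square divided by its degrees of freedom was 11.3 to 49.2 for pairs of replicates (genes with 20 counts or more), so no library was a copy and counting error was the smaller part of the spread. Named beside the members were genes called in a list (at most 4 by size of change), or else the 2 with the lowest unadjusted p between RvD6si and vehicle, and the 5 genes closest to the triplet among those with a mean CPM of at least 10. Alternatives were DESeq2, fits of 2 groups, RLE normalization, other filters, removal of the length trend (lowess, span 0.3), neuronal or muscle levels as a covariate, removal of the 10 most counted genes, each sample left out, and RvD6 replicates 8 and 9 left out, the last added after the values were seen. The list of kinases that act on neurofilaments or tau is not reported here.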

Additional observations from a re-analysis of the deposited data

Results flagged for a closer look

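A test for a single distant sample (Dixon's, 95% level, over groups of 5) was applied to the 54 sets of values given by 10 normalized counts and 8 ratios in 3 groups, and it marked 5 sets, where chance marks about 1 in 20. In the RvD6 group, replicate 8 had the highest Nefm normalized count, 21665 against 8717 in the nearest sample. Nefl and Nefh were not distant in that replicate, at 23720 and 13434. In the RvD6si group, replicate 11 had the highest Map1b normalized count, 48535 against 38776.

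The Nefh to Nefl log2 ratio per kilobase was distant in 2 groups, with RvD6 replicate 9 at -2.28 against -1.39 in the nearest sample and RvD6si replicate 11 at -1.95 against -1.23. Muscle RNA differed between these libraries, at 3160 and 27.2 summed CPM, and its part in the ratios was not tested. The Ina to Nefl log2 ratio was lowest in RvD6si replicate 12, at -7.49 against -7.04, where Ina had 135 normalized counts.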

How the results depend on the processing

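Between RvD6 and vehicle all 259 log2 fold changes of the members under the alternatives kept their direction and stayed uncalled. Between RvD6si and vehicle 252 of 259 did so. DESeq2 called 1 member, Stmn2 (-0.37), both with 15 samples and with 2 groups, and directions turned for Nefm without the length trend (-0.05) and for Mapt with the pan-neuronal term (-0.15). With 1 sample left out Nefm ranged from -0.05 to 0.18 and Nefh from -0.20 to 0.003. Between RvD6si and RvD6 251 of 259 kept theirs. Stmn2 turned to -0.0007 with at least 10 counts in every sample, to -0.02 without the length trend and ranged from -0.04 to 0.13 over the samples left out, and Stmn3 turned to -0.03 with the pan-neuronal term and ranged from -0.02 to 0.14. Map1b is one of the 10 most counted genes and has no value without them.

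Counts of all genes called moved far more. For RvD6si against vehicle, 111 in the report became 920 and 979 with DESeq2 (15 samples, 2 groups), 315 with at least 10 counts in every sample, 11 with the pan-neuronal term, 63 without the length trend and 0 (without RvD6si replicate 11) to 229 (without RvD6 replicate 9) with 1 sample left out. For RvD6 against vehicle, 0 became 369 and 664 with DESeq2, 24 with at least 10 counts, 38 with 2 groups in edgeR, 56 without a filter, 2 with the muscle term and 0 to 51 (without RvD6si replicate 15). For RvD6si against RvD6, 39 became 185 and 182 with DESeq2, 2 without RvD6 replicates 8 and 9, 23 with at least 10 counts, 17 with 2 groups, 59 without a filter, 7 with the pan-neuronal and 2 with the muscle term, and 2 (without RvD6si replicate 11, 13 or 14) to 156 (without RvD6si replicate 15). The cause was not tested. TMM scaling shifted member means by at most 5.19%. No paired analysis was possible because the replicate numbers run from 1 to 15 and no number occurs in 2 groups.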
